A study of Homo sapiens with 12 samples.

Results

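Transcripts of 34 genes of the basement membrane were followed after CD146, a cell surface adhesion molecule encoded by MCAM, was either lowered, in the libraries that carry the label Hep3B, or raised, in HepG2. The genes were listed by function and found by matching gene symbols to the Ensembl identifiers of the count table. All 34 were found among 61806 genes. They comprised 10 laminin chains, 6 collagen IV chains, 2 nidogens, 4 heparan sulfate proteoglycans and multiplexins, 2 netrins, 5 matricellular or calcium-binding proteins, 2 proteins of the Fraser complex, the receptor DAG1 and 2 crosslinking enzymes.

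The 12 libraries were poly(A) RNA-seq in 4 groups of 3. Libraries labelled Hep3B carried a Tet-on-induced control shRNA or a Tet-on-induced shRNA to CD146, and were grown in DMEM. HepG2 libraries carried the pLVX vector or a CD146 expression vector, and were grown in MEM. Hep3B and HepG2 are established human liver cancer lines. The shRNA titles are numbered sh1 to sh3, which may be hairpins or replicates, and nothing says that libraries came from separate cultures or clones, so that each p-value reflects only the variation among the 3 libraries of a group, which may be technical. The lines differed in perturbation, vector and medium as well as in origin, and these cannot be told apart.

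A basement membrane is a thin sheet of extracellular matrix that lies under epithelia and endothelia and around muscle and nerve. Laminins are heterotrimers of an alpha, a beta and a gamma chain that polymerise at the cell surface, where they bind integrins and dystroglycan. Collagen IV forms a second network of triple helices, and nidogens, perlecan and agrin link both networks. In liver, basement membrane components gather around bile ducts, large vessels and, in fibrosis and carcinoma, along sinusoids. Laminins with the alpha-4 chain and netrin-1 have been described as ligands of CD146.

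Totals ran from 12.8M to 18.1M counts (M, 1e6) per library, and 3 counts, the floor used for detection, were worth 0.165 to 0.235 CPM on unscaled totals. CPM are counts per 1e6 after TMM scaling within a line, except in sums over markers and where unscaled totals are named. The floor covers counting error only. MCAM itself averaged 115 ± 3.54 CPM (SD, n = 3) under the control shRNA and 24.4 ± 2.44 under the CD146 shRNA, and it went from 23.4 ± 0.409 with pLVX to 1932 ± 30.9 with the CD146 vector. None of 18 hepatocyte genes averaged 10 CPM on unscaled totals in either group labelled Hep3B, against 18 of 18 in HepG2. The name of that line is therefore given as a label throughout. The library of CD146 shRNA replicate 3 held 1044 counts over 16 hepatocyte genes, 0.111% of their HepG2 level, against 0.00099% to 0.00297% in the other 5 libraries labelled Hep3B. Without that library 26 members rose and 2 fell with the CD146 shRNA, as with it, and values without it stand beside SPARC, FRAS1 and the gene lists.

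The collagen IV genes lie head to head in pairs, and their promoter windows are shown because each pair's chains are compared below. The windows cover 250 bases before to 50 after a gene's start in RefSeq (GRCh38.p14), and 29 of the 34 members matched at least one, with 36 windows in all. COL4A1 and COL4A2 start 126 bases apart on opposite strands of chromosome 13, so that their windows share 226 bases. COL4A3 and COL4A4 on chromosome 2 are 418 bases apart and share 82, and COL4A5 and one of the COL4A6 starts on chromosome X are 379 apart and share 121. LAMA3 is added because it held 2 matches to the AP-1 motif. Its window marks a start inside the gene, which begins at 23689443 in GENCODE version 29. The other member with a match was LAMB3, with 1 in the first of its 3 windows. Capitals mark matches on either strand to CCAAT (read ATTGG on the other strand), to the GC box GGGCGG (read CCGCCC) or to TGANTCA, an AP-1 motif.
COL4A1, chr13:110307108-110307407, minus strand: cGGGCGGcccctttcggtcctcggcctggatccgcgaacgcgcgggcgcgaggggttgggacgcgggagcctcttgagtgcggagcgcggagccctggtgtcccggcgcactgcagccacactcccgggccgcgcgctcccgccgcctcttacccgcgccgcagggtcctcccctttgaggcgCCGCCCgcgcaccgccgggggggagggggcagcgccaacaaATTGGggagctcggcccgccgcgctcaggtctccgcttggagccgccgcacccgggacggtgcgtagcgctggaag
COL4A3, chr2:227164374-227164673, plus strand: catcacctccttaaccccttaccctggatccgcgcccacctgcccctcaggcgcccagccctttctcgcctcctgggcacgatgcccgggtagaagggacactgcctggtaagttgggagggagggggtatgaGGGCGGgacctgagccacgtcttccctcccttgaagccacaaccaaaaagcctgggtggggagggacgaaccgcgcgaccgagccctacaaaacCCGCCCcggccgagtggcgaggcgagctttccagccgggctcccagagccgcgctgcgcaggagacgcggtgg
COL4A5, chrX:108439588-108439887, plus strand: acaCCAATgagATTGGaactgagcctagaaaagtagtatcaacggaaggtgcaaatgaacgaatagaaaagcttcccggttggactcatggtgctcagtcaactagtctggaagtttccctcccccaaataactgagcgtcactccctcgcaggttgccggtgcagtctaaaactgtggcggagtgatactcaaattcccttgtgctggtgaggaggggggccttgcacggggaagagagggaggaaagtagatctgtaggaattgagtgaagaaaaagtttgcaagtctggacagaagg
COL4A6, second window, chrX:108439409-108439708, minus strand: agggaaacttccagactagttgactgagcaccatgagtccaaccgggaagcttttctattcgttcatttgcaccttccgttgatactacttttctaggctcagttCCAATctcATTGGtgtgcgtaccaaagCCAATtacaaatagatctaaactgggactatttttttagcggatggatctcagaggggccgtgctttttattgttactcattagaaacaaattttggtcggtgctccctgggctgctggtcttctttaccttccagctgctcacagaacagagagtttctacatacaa
LAMA3, chr18:23872770-23873069, plus strand: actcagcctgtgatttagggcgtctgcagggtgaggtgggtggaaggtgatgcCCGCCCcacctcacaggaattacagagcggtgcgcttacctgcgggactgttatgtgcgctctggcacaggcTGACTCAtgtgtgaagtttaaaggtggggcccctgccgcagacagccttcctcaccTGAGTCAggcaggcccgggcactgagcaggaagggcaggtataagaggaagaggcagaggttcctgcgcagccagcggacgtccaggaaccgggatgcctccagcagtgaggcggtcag
The GC box was present in 27 of the 36 windows (75%), against 45% of all 35116 promoters in the table. Some of the 36 windows overlap, as those of COL4A1 and COL4A2 do, so that a shared match is counted in each. The GC content of all promoters was not computed, and its part in this share was not tested. CCAAT was present in 36.1% against 34.6%, TGANTCA in 5.56% against 7.71%, and TATAAA in 5.56% against 11.5%. None of these motifs overlapped another in the windows printed. The windows of COL4A1 and COL4A3 had GC contents of 76.7% and 67.7%, and that of COL4A5 49.3%. A match is a description of letters and not a binding site.

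Under the control shRNA, the laminin chains with the highest levels per transcript length were LAMC1, LAMB1 and LAMA5. The deposited FPKM averaged 56.3 ± 1.78 for LAMC1 (SD, n = 3), the common gamma chain, 34.01 ± 0.829 for LAMB1 and 23.9 ± 1.12 for LAMA5, so that the groups of these 3 chains did not overlap. LAMB3 at 19.7 ± 0.541 FPKM and LAMC3 at 11.9 ± 0.341 followed, and LAMB2, LAMA3 and LAMA1 lay between 1.45 and 1.92. In HepG2 with pLVX, LAMC1 was also highest at 49.9 ± 0.477 FPKM, but the beta chain with the higher level was LAMB2, at 25.9 ± 0.631 against 16.3 ± 0.232 for LAMB1. LAMA5 averaged 14.9 ± 0.416 FPKM there, and no other alpha chain averaged above 0.11. LAMA4, the alpha chain described as a CD146 ligand, had 0 to 12 counts in every library and was not tested in any comparison.

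**Figure D1:**
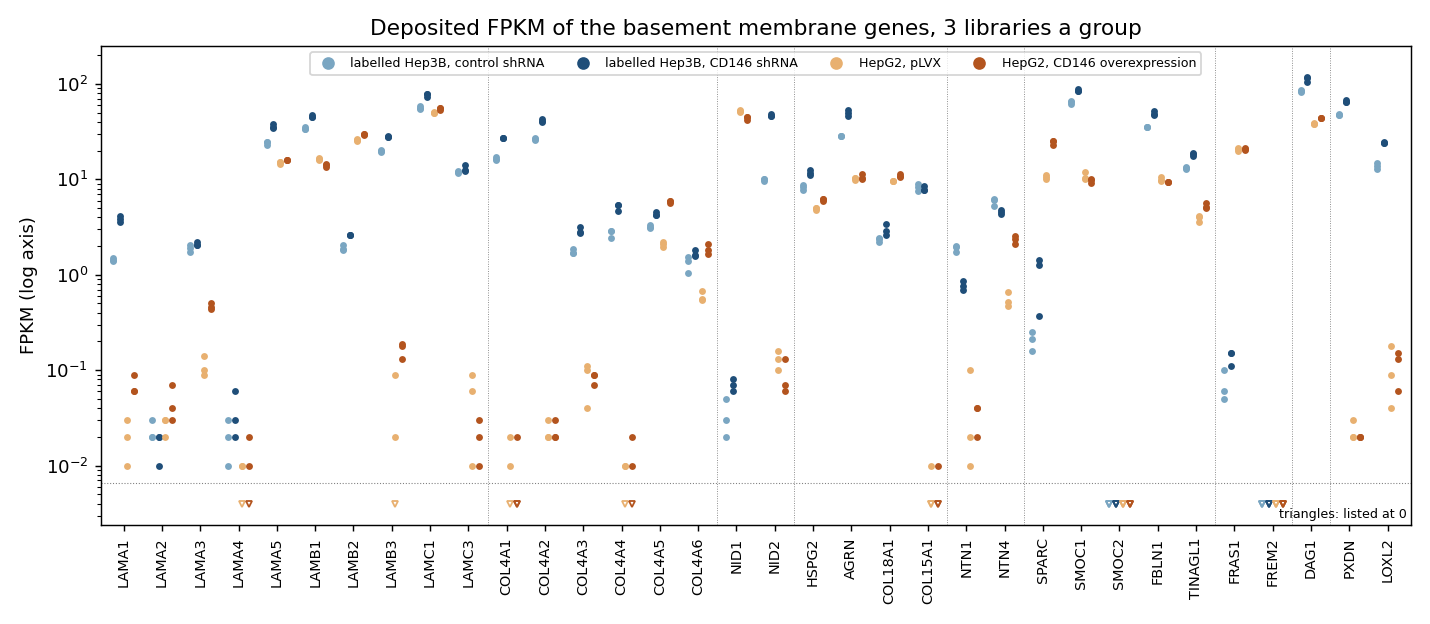
Deposited FPKM (log axis) of the 34 genes, 1 point per library and 3 libraries a group, in the order of their roles; triangles mark values listed at 0. COL4A1, COL4A2, LAMB3, LAMC3, COL15A1 and PXDN lie far lower in HepG2 than in the libraries labelled Hep3B, and NID1, FRAS1, SPARC and LAMB2 lie lower in the libraries labelled Hep3B.

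The 2 lines expressed different sets of these genes. Collagen IV alpha-1 and alpha-2 (COL4A1, COL4A2), the chains of the ubiquitous network, averaged 16.5 ± 0.519 and 26.4 ± 0.511 FPKM under the control shRNA. In the 6 HepG2 libraries they had 0 to 4 and 4 to 9 counts. COL15A1, a multiplexin collagen, had 753 to 982 counts in the control shRNA libraries and 0 or 1 in HepG2, and PXDN, the peroxidase that forms sulfilimine bonds between collagen IV molecules, had 7279 to 9117 and 3 to 5. NID1 and NID2, the nidogen pair, were split: NID1 had 2 to 8 counts in every library labelled Hep3B and 3475 to 4983 in HepG2, whereas NID2 had 865 to 1044 in the control shRNA libraries and 5 to 13 in HepG2. FRAS1, which holds epithelium to the underlying matrix, had 18 to 28 counts in the control shRNA libraries and 5465 to 6734 with pLVX.

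Between control shRNA libraries labelled Hep3B and HepG2 pLVX libraries, 24 of the 31 members tested were higher (43.4% of all genes tested were) and 6 were lower (39.7%), by edgeR's quasi-likelihood test in a fit of all 12 libraries with a Benjamini-Hochberg adjusted p under 0.05. The 6 lower were LAMB2, LAMC1, NID1, COL18A1, SPARC and FRAS1, and LAMA2 did not pass. Members that passed the filter only through the line in which they are high had to differ, and their count supports nothing further. The call on LAMC1 was small, and its sign differed between the counts and the FPKM. Its log2 difference was -0.14 (SE 0.04, adjusted p = 0.00105) on counts, where the median of all genes was 0.08, and 0.17 (limma adjusted p = 0.000906) on the deposited FPKM, where that median was 0.16. LAMA5 was higher by 0.37 (SE 0.04), LAMB1 by 0.74 (SE 0.04), DAG1 by 0.82 (SE 0.04) and AGRN by 1.16 (SE 0.05) in the libraries labelled Hep3B, each with an adjusted p of 7.36e-12 or less in edgeR's test.

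With CD146 lowered, 26 of 29 tested members rose and 2 fell, where 26.8% of all 16968 genes tested were higher and 28.5% lower (edgeR, adjusted p under 0.05, each line fitted alone). The members' median log2 fold change was 0.51, with a range from -1.28 to 2.39, and the median of all genes tested was 0.001. The netrins NTN1 and NTN4 were the 2 that fell, COL15A1 did not pass, and LAMA2, LAMA4, NID1, FREM2 and SMOC2 were too low to test. SMOC2 had 0 counts in all 12 libraries and FREM2 a single count. Being bulk RNA, the libraries cannot tell fewer cells of a kind from less RNA per cell.

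**Figure D2:**
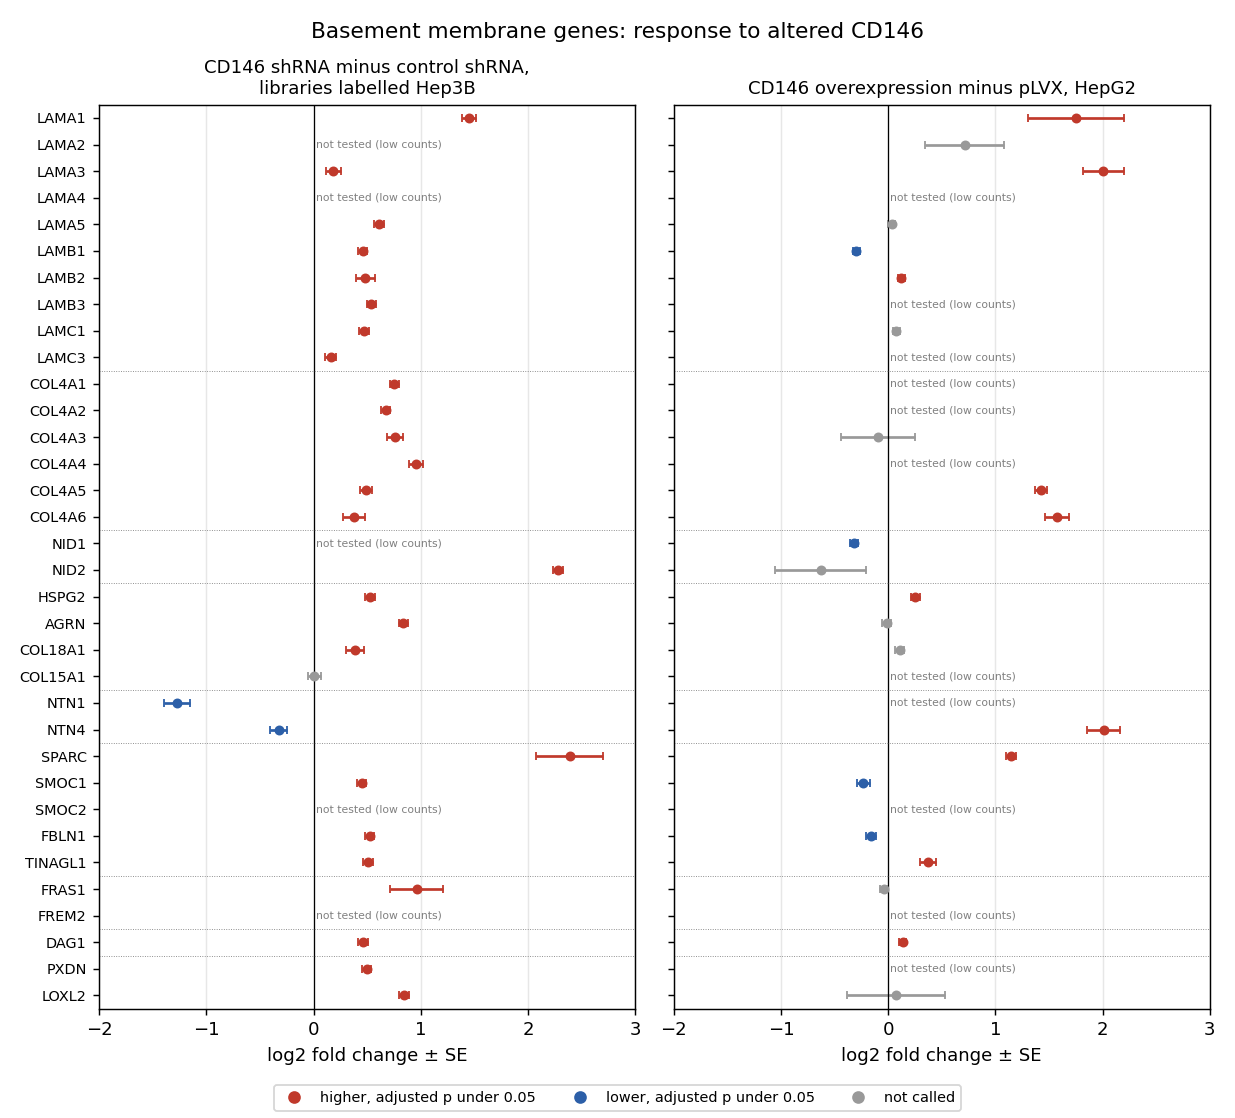
Log2 fold change ± SE (edgeR) of each member with CD146 lowered (left, libraries labelled Hep3B) or raised (right, HepG2), in order of role; red and blue mark higher and lower calls and grey marks members not called. Of 29 members tested on the left, 26 are higher, and of 23 on the right, 10 are higher and 4 lower.

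All 8 laminin chains tested rose with the CD146 shRNA. LAMA1, the alpha chain of early embryonic basement membranes, stood at 21.7, 23.8 and 22.6 CPM under the control shRNA and at 57.4, 62.4 and 66.3 CPM under the CD146 shRNA. Every treated library lay above every control, and the rise was 2.74-fold (log2 fold change 1.45 with an SE of 0.07, edgeR adjusted p = 2.01e-21). LAMA5, the most widespread alpha chain of adult epithelia, stood at 342, 322 and 351 CPM and then at 502, 548 and 498 CPM. The groups did not overlap, with a log2 fold change of 0.61 (SE 0.04, edgeR adjusted p = 3.44e-15).

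LAMB1, LAMB2, LAMB3 and LAMC1 had log2 fold changes between 0.46 and 0.54. LAMB1 went from 616, 618 and 643 CPM to 878, 857 and 844 CPM (log2 fold change 0.46 with an SE of 0.04). LAMC1 went from 457, 468 and 487 CPM to 613, 673 and 670 CPM (0.47, SE 0.04). LAMB3, the beta chain of the laminin that anchors the epidermis, went from 89.8, 88.5 and 93.1 CPM to 131, 133 and 130 CPM (0.54, SE 0.05). In each the lowest treated library lay above the highest control, and the edgeR adjusted p was 2.9e-12 or less. LAMB2, the beta chain of kidney glomerulus and neuromuscular junction, rose from 12.4, 14.0 and 12.8 CPM to 18.03, 18.1 and 18.5 CPM (0.48, SE 0.09, edgeR adjusted p = 1.34e-05). LAMB1 overlaps DLD in the annotation, LAMA5 overlaps ADRM1, and LAMC1 overlaps LAMC1-AS1, and as the counting's strand setting is not given in the sources used here, these values are uncertain in that respect.

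The changes of LAMA3 and LAMC3 were small and rested on single libraries. LAMA3, the alpha chain paired with LAMB3, stood at 29.1, 25.0 and 27.0 CPM and then at 31.9, 30.2 and 30.3 CPM (log2 fold change 0.18 with an SE of 0.07, edgeR adjusted p = 0.0249). It missed the threshold without control replicate 2 (0.13, edgeR adjusted p = 0.174), control replicate 3 (0.18, edgeR adjusted p = 0.0699) or CD146 shRNA replicate 1 (0.16, edgeR adjusted p = 0.0787), and in DESeq2 (adjusted p = 0.0604). LAMC3 stood at 102, 109 and 106 CPM and then at 112, 130 and 111 CPM (0.16, SE 0.05, edgeR adjusted p = 0.0075). Replicate 2 was its high treated library, and without it the log2 fold change was 0.09 (edgeR adjusted p = 0.154). Without control replicate 1 it was 0.13 (edgeR adjusted p = 0.0635).

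All 6 collagen IV chains rose with the CD146 shRNA, with a median log2 fold change of 0.71 and a range of 0.38 to 0.95. COL4A1 stood at 236, 234 and 247 CPM under the control shRNA and at 396, 405 and 407 CPM under the CD146 shRNA, 1.69-fold higher. COL4A2 went from 491, 506 and 513 CPM to 764, 838 and 804 CPM, 1.59-fold higher. Neither pair of groups overlapped, and the edgeR adjusted p-values were 6.5e-19 and 4.86e-17. The 2 genes also overlap each other in the annotation (chromosome 13, 110148963 to 110307233 on the minus strand and 110305812 to 110513209 on the plus strand, GENCODE version 29, GRCh38).

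Alpha-3 and alpha-4, the chains that join alpha-5 in the network of the kidney glomerulus, lay lower per length and rose as well. COL4A3 stood at 22.7, 20.5 and 20.7 CPM and then at 38.6, 34.2 and 35.1 CPM (log2 fold change 0.76 with an SE of 0.07, edgeR adjusted p = 1.12e-11). COL4A4 stood at 33.1, 33.4 and 28.6 CPM and then at 63.6, 56.2 and 64.3 CPM (0.95, SE 0.06, edgeR adjusted p = 7.65e-16). Per length, the control shRNA means were 1.75 ± 0.11 FPKM for COL4A3 and 2.71 ± 0.228 for COL4A4, and treated and control libraries of each were apart.

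Alpha-5 and alpha-6, the X-linked pair, were the collagen IV chains that both lines expressed. COL4A5 stood at 36.4, 37.2 and 38.6 CPM and then at 54.5, 51.3 and 51.6 CPM with the CD146 shRNA (log2 fold change 0.49 with an SE of 0.06, edgeR adjusted p = 3.24e-09). COL4A6 stood at 12.6, 9.67 and 14.0 CPM and then at 17.0, 15.5 and 14.8 CPM (0.38, SE 0.10, edgeR adjusted p = 0.00233). The COL4A6 groups came close to each other, and without control replicate 2, the lowest library, its log2 fold change was 0.25 (edgeR adjusted p = 0.0493).

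**Figure D3:**
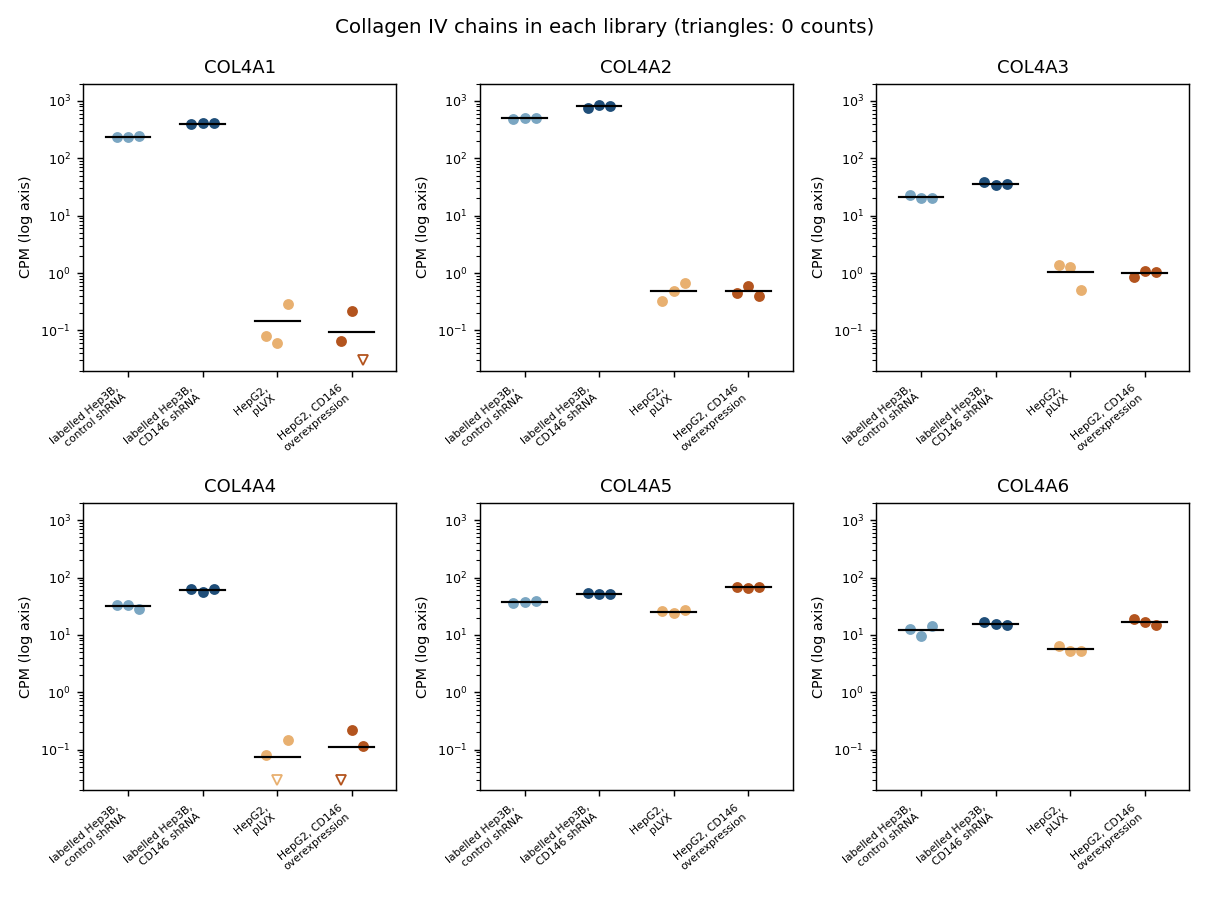
CPM (log axis) of the 6 collagen IV chains in each library, with bars at group means and triangles at 0 counts. All 6 chains are higher under the CD146 shRNA, and in HepG2 only COL4A5 and COL4A6 lie above 2 CPM, both higher with the CD146 vector.

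NID2, a nidogen that bridges laminin and collagen IV, had one of the larger rises. It stood at 59.0, 62.4 and 62.0 CPM under the control shRNA and at 288, 308 and 295 CPM under the CD146 shRNA. The groups were far apart, with a 4.86-fold rise (log2 fold change 2.28 with an SE of 0.05, edgeR adjusted p = 6.89e-33). NID2 overlaps RTRAF (chromosome 14, 52004803 to 52069228). NID1, its paralog, had 3, 2 and 5 counts under the control shRNA and 8, 6 and 6 under the CD146 shRNA, too few to test. The HepG2 level of NID1, scaled by the hepatocyte share of CD146 shRNA replicate 3, was 0.31 CPM, against 0.425 measured there on unscaled totals. For CD146 shRNA replicates 1 and 2 the scaled values were 0.00486 and 0.00829 CPM, against 0.441 and 0.349 measured. Whether any of this RNA came from HepG2 was not tested.

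The proteoglycans that bind laminin and nidogen followed. AGRN (agrin) stood at 298, 306 and 304 CPM and then at 500, 587 and 539 CPM (log2 fold change 0.84 with an SE of 0.05, edgeR adjusted p = 6.74e-19). HSPG2 (perlecan) stood at 154, 141 and 150 CPM and then at 209, 230 and 203 CPM (0.53, SE 0.05, edgeR adjusted p = 1.25e-12). Neither gene's groups overlapped. COL18A1, the multiplexin whose cleaved end is endostatin, stood at 18.6, 19.8 and 20.2 CPM and then at 24.2, 29.4 and 22.8 CPM (0.39, SE 0.08, edgeR adjusted p = 0.000137). COL15A1, the other multiplexin, stood at 58.0, 54.3 and 49.3 CPM and then at 57.3, 52.4 and 52.5 CPM, and its groups overlapped (0.01, SE 0.06, edgeR adjusted p = 0.924). HSPG2 overlaps LDLRAD2, and COL18A1 overlaps SLC19A1.

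The netrins, which carry laminin-like domains, fell. NTN1, a guidance cue described as a CD146 ligand, stood at 12.3, 11.04 and 12.6 CPM and then at 4.87, 4.51 and 5.57 CPM, 41.6% of the control level (log2 fold change -1.28 with an SE of 0.12, edgeR adjusted p = 1.51e-11). NTN4, which disrupts laminin polymers, stood at 26.5, 22.7 and 26.0 CPM and then at 21.0, 19.2 and 20.1 CPM (-0.33, SE 0.08, edgeR adjusted p = 0.000535). All treated libraries of both genes lay below all controls.

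SPARC, a calcium-binding protein that attaches to collagen IV, was low in these libraries and uneven among the treated ones. It stood at 1.12, 0.721 and 0.951 CPM under the control shRNA and at 5.92, 6.83 and 1.74 CPM under the CD146 shRNA (log2 fold change 2.39 with an SE of 0.31, edgeR adjusted p = 2.39e-08). Replicate 3 was the low treated library, and without it the log2 fold change was 2.74 (edgeR adjusted p = 8.92e-12). Among stromal markers, COL1A2 stood at 8.19, 8.90 and 1.37 CPM in replicates 1, 2 and 3 of the CD146 shRNA and COL3A1 at 1.99, 2.91 and 0.506, against at most 0.217 and 0.295 in the controls. COL1A1 stood at 97.1, 96.6 and 84.2 CPM there and PDGFRB at 8.69, 8.37 and 9.11 CPM, with no such gap in replicate 3. On the FPKM scale with a pseudocount of 1, SPARC missed the threshold (0.70, limma adjusted p = 0.051).

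The remaining matricellular members that could be tested were high and rose evenly. SMOC1, a SPARC relative, stood at 284, 269 and 278 CPM and then at 391, 372 and 371 CPM (log2 fold change 0.45 with an SE of 0.04). FBLN1, a fibulin that binds laminin and nidogen, stood at 252, 257 and 254 CPM and then at 354, 390 and 353 CPM (0.52, SE 0.04). TINAGL1, a matrix ligand related to cathepsins, stood at 66.2, 69.3 and 70.6 CPM and then at 92.1, 102.8 and 98.2 CPM (0.51, SE 0.05). In none did the groups overlap, and the edgeR adjusted p was 4.03e-11 or less. SMOC1 overlaps the processed pseudogene RPL7AP6.

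DAG1, the dystroglycan receptor of laminins, agrin and perlecan, stood at 582, 606 and 612 CPM and then at 754, 869 and 849 CPM (log2 fold change 0.46 with an SE of 0.04, edgeR adjusted p = 2.27e-11). The crosslinking enzymes rose too: PXDN went from 524, 525 and 542 CPM to 722, 776 and 746 CPM (0.50, SE 0.04, edgeR adjusted p = 2.08e-13). LOXL2, a lysyl oxidase that crosslinks collagen IV, went from 82.1, 77.1 and 86.9 CPM to 144, 148 and 151 CPM (0.84, SE 0.05, edgeR adjusted p = 2.37e-18). No treated library of these 3 genes fell within the control range. LOXL2 overlaps ENTPD4. FRAS1, at 1.24, 2.02 and 1.07 CPM and then 2.21, 3.09 and 3.04 CPM, rose from a low level (0.96, SE 0.25, edgeR adjusted p = 0.00124). The HepG2 level of FRAS1, scaled by the hepatocyte share of CD146 shRNA replicate 3, was 0.467 CPM, against 2.975 measured there on unscaled totals. Whether any of this RNA came from HepG2 was not tested. Without that library the log2 fold change of FRAS1 was 0.90 (edgeR adjusted p = 0.00793).

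Markers of other cell types moved in the same libraries, in both directions. The summed level, on unscaled totals, of 8 endothelial markers ranged from 29.4 to 32.5 CPM in the controls and from 58.4 to 59.9 CPM with the CD146 shRNA. Of these, CDH5 rose from 0.649, 0.722 and 0.891 CPM to 19.8, 21.0 and 19.5 CPM, 3 of 5 tested were higher (26.8% of all genes tested were), and the defining marker KDR had 0 counts in all 6 libraries. The sum of 9 fibroblast and stellate markers ranged from 62.1 to 72.7 CPM and then from 98.8 to 121 CPM, with COL1A1, COL1A2 and PDGFRB higher among 5 tested, against the same 26.8%. COL1A2 had 3 counts in each control library. It was tested only through the libraries in which it is high, so that its call supports nothing further. Without CD146 shRNA replicate 3, 3 of 5 endothelial and 4 of 6 fibroblast and stellate markers tested were higher, where 24.5% of all genes tested were. Of those 6, COL1A2 and COL3A1 were tested only through the CD146 shRNA libraries in which they are high. The sum of 5 cholangiocyte markers went the other way, from between 190.4 and 204.8 CPM in the controls to between 159.7 and 164.2 CPM, with KRT7 (-0.36, SE 0.04) and SOX9 (-1.34, SE 0.20) lower among 4 tested, where 28.5% of all genes tested were. The part of these markers in the rise of the basement membrane genes was not tested.

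With CD146 raised in HepG2, 10 of 23 tested members rose and 4 fell, where 9.55% of all 15300 genes tested were higher and 10.3% lower (edgeR, adjusted p under 0.05). The members' median log2 fold change was 0.11, with a range from -0.63 to 2.01, and the median of all genes was 0.002. LAMA1, LAMA3, LAMB2, COL4A5, COL4A6, HSPG2, NTN4, SPARC, TINAGL1 and DAG1 rose, and LAMB1, NID1, FBLN1 and SMOC1 fell. Of these, LAMA1 passed the filter only through the libraries in which it is high. In HepG2, 11 members were too low to test, among them COL4A1, COL4A2 and PXDN. Of all calls in this comparison 48.1% were higher on counts and 73.3% on the FPKM scale (limma, pseudocount 1), 2 settings that differ in unit, filter and test. With RLE scaling of the counts the share was 48.3%.

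Some cell type markers moved with the CD146 vector too. All 3 cholangiocyte markers tested were higher, with KRT19 at a mean of 27.5 CPM with pLVX and 71.7 CPM with the vector, and the sum of the 5 markers went from between 346 and 364 CPM to between 486 and 500 CPM. Of 18 hepatocyte markers, all expressed in HepG2, 8 were lower and 3 higher, with ALB at -0.54 (SE 0.03) and AFP at -0.53 (SE 0.03). Of 3 endothelial markers tested 0 were called. Of 5 fibroblast and stellate markers tested 1 was higher and 1 lower, and of 3 leukocyte markers tested 1 was lower. Over all genes tested, 9.55% were higher and 10.3% lower. The part of these markers in the changes of the basement membrane genes was not tested.

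The X-linked collagen IV pair had large rises. COL4A5 measured 26.1, 23.8 and 26.6 CPM in the pLVX libraries, against 69.4, 66.4 and 69.1 CPM with the CD146 vector. That was 2.68-fold higher with no overlap (log2 fold change 1.43 with an SE of 0.06, edgeR adjusted p = 1.01e-26). COL4A6 stood at 6.39, 5.32 and 5.26 CPM and then at 18.9, 16.6 and 14.9 CPM, 2.97-fold higher (1.57, SE 0.12, edgeR adjusted p = 1.71e-16). Per length, COL4A5 reached 5.88 ± 0.159 FPKM, above the 4.35 ± 0.197 of the CD146 shRNA libraries labelled Hep3B. COL4A3 stood at 1.38, 1.28 and 0.511 CPM and then at 0.837, 1.11 and 1.04 CPM, and its groups overlapped (-0.10, SE 0.35, edgeR adjusted p = 0.892).

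Among laminin chains, the alpha chains LAMA3 and LAMA1 rose from low levels. LAMA3 measured 1.46, 1.41 and 2.12 CPM in the pLVX libraries, against 6.24, 6.49 and 7.22 CPM with the CD146 vector. The groups were apart, with a 4.01-fold rise (log2 fold change 2.01 with an SE of 0.19, edgeR adjusted p = 1.31e-12). LAMA1 had 6, 4 and 3 counts with pLVX and 14, 12 and 23 with the CD146 vector (1.75, SE 0.45, edgeR adjusted p = 0.00283). It passed the filter only through the libraries in which it is high. LAMA2 did not pass (0.71, SE 0.37, edgeR adjusted p = 0.177), and LAMB3, with 1, 0 and 6 counts and then 9, 12 and 14, was too low to test.

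The abundant chains moved little. LAMB1 stood at 314, 307 and 316 CPM and then at 263, 257 and 243 CPM, 81.5% of the pLVX level with no overlap (log2 fold change -0.30 with an SE of 0.03, edgeR adjusted p = 5.77e-10). LAMB2 stood at 189, 181 and 178 CPM and then at 196, 201 and 199 CPM (0.12, SE 0.04, edgeR adjusted p = 0.00911). Without pLVX replicate 3, the LAMB2 change was 0.11 and missed the threshold (edgeR adjusted p = 0.0672). LAMC1 at 435, 435 and 428 CPM and then 464, 464 and 442 CPM did not pass (0.08, SE 0.03, edgeR adjusted p = 0.08). It passed without CD146 overexpression replicate 3 (0.10, edgeR adjusted p = 0.0469) and on the FPKM scale (0.15, limma adjusted p = 0.0255). LAMA5 did not pass either (0.03, SE 0.03, edgeR adjusted p = 0.572).

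NID1, the nidogen of this line, measured 321, 305 and 308 CPM in the pLVX libraries, against 253, 256 and 240 CPM with the CD146 vector. It fell to 80.2% of control, with the groups apart (log2 fold change -0.32 with an SE of 0.03, edgeR adjusted p = 8.14e-11). NID2 at 1.05, 0.611 and 0.803 CPM and then 0.772, 0.369 and 0.405 CPM did not pass (-0.63, SE 0.42, edgeR adjusted p = 0.332). HSPG2 stood at 93.2, 92.6 and 87.8 CPM and then at 110, 111 and 106 CPM (0.25, SE 0.04, edgeR adjusted p = 6.56e-06), while AGRN at 106 to 120 CPM in all 6 libraries overlapped between groups (-0.01, SE 0.04, edgeR adjusted p = 0.863).

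SPARC and NTN4 rose clearly. SPARC stood at 53.7, 47.5 and 50.02 CPM and then at 113, 116 and 105 CPM, 2.21-fold higher (log2 fold change 1.15 with an SE of 0.05, edgeR adjusted p = 6.77e-26). NTN4 stood at 2.99, 2.32 and 2.12 CPM and then at 10.8, 8.92 and 10.0 CPM, 3.99-fold higher (2.01, SE 0.15, edgeR adjusted p = 1e-15). In both genes every library with the CD146 vector lay above every pLVX library. TINAGL1 went from 19.3, 21.6 and 22.4 CPM to 29.5, 25.7 and 26.7 CPM (0.37, SE 0.07, edgeR adjusted p = 0.000155), and DAG1 from 281, 287 and 281 CPM to 311, 311 and 310 CPM (0.14, SE 0.03, edgeR adjusted p = 0.00128).

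**Figure D4:**
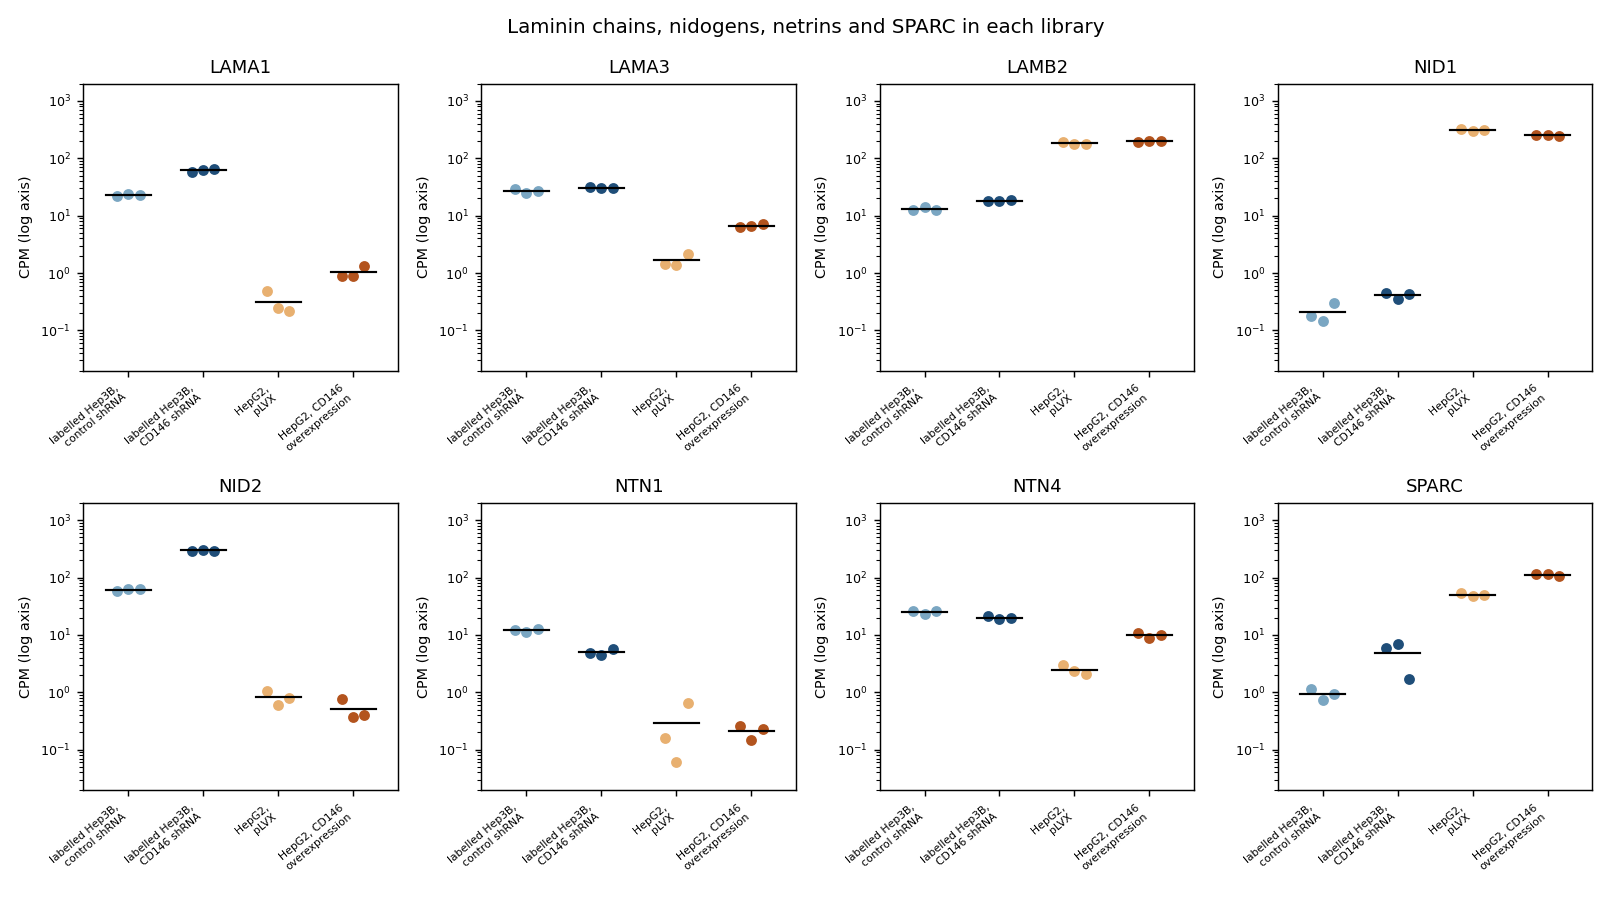
CPM (log axis) of LAMA1, LAMA3, LAMB2, NID1, NID2, NTN1, NTN4 and SPARC in each library, with bars at group means. NTN4 is lower under the CD146 shRNA and higher with the CD146 vector, and SPARC is low in CD146 shRNA replicate 3 (1.74 CPM against 5.92 and 6.83).

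The falls of SMOC1 and FBLN1 were small. SMOC1 stood at 45.7, 53.4 and 45.8 CPM and then at 42.3, 43.3 and 38.6 CPM (log2 fold change -0.23 with an SE of 0.06, edgeR adjusted p = 0.00322). The high pLVX library was replicate 2, and without it the change was -0.15 (edgeR adjusted p = 0.125). Without CD146 overexpression replicate 3 it was -0.18 (edgeR adjusted p = 0.0665). FBLN1 stood at 74.9, 71.9 and 79.2 CPM and then at 67.5, 67.3 and 67.2 CPM (-0.16, SE 0.05, edgeR adjusted p = 0.0116). It missed the threshold without pLVX replicate 3 (-0.12, edgeR adjusted p = 0.107) and in DESeq2 (adjusted p = 0.0561). COL18A1, FRAS1 and LOXL2 did not pass.

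The effect of higher CD146 was then compared between the lines, as overexpression minus pLVX in HepG2 less control shRNA minus CD146 shRNA in the libraries labelled Hep3B. The contrast uses the same control libraries as the comparisons above. Line, vector, medium and the kind and size of the perturbation cannot be told apart in it. By its form it adds the log2 fold change with the CD146 shRNA to that with the CD146 vector. The rise of 26 of 29 tested members with the CD146 shRNA therefore enters it, and its count is not a separate result. Of 31 members tested, 20 were higher in it (17.2% of all genes tested were) and 0 were lower (19.2%) by edgeR. LAMB3, 1 of the 20, was too low to test in HepG2 alone and entered through the libraries in which it is high, so that its value is a description. At an unadjusted p under 0.05, 2 members were lower, NTN1 and LAMC3, and DESeq2 called 1. Both were also too low to test in HepG2 alone and entered in the same way as LAMB3. The median log2 difference was 0.65, against 0.04 over all genes. NTN4 was the member that fell with the CD146 shRNA and rose with the CD146 vector, and its contrast was 1.69 (SE 0.17, edgeR adjusted p = 5.78e-12).

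Called higher both with the CD146 shRNA and with the CD146 vector were 9 members: LAMA1, LAMA3, LAMB2, COL4A5, COL4A6, HSPG2, SPARC, TINAGL1 and DAG1. The share of all genes called higher in both was not computed. As 26 of 29 tested members were higher with the CD146 shRNA, most members that rose in HepG2 had to be among them. The count is a description. In HepG2, LAMA1 passed the filter only through the libraries in which it is high. The call on LAMA3 with the CD146 shRNA was lost in 8 alternatives. The contrast gave 1.92 (SE 0.08) for COL4A5, 1.95 (SE 0.16) for COL4A6, 3.55 (SE 0.28) for SPARC and 0.79 (SE 0.07) for HSPG2, each with an edgeR adjusted p of 4.33e-15 or less. LAMB1 rose with the CD146 shRNA and fell with the CD146 vector, which is the same direction of response to higher CD146, and its contrast was 0.17 (SE 0.05, edgeR adjusted p = 0.0124). Without CD146 overexpression replicate 1 it was 0.14 (edgeR adjusted p = 0.0614). FBLN1 and SMOC1 had the same directions as LAMB1, with contrasts of 0.37 (SE 0.06) and 0.22 (SE 0.07). SMOC1's contrast passed the threshold (edgeR adjusted p = 0.014) but missed it without pLVX replicate 1 or 3 (0.18 and 0.17, edgeR adjusted p = 0.0685 and 0.0835) or CD146 overexpression replicate 1 or 2 (0.20 and 0.19, edgeR adjusted p = 0.0502 and 0.0594).

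Genes that work with the members were counted in 5 further lists, whose counts stand against the shares over all genes of 26.8% higher and 28.5% lower with the CD146 shRNA and 9.55% and 10.3% with the CD146 vector. Without CD146 shRNA replicate 3, 6 of 16 receptors tested were higher and 3 lower, 8 and 2 of 14 folding genes, 1 and 2 of 4 lysyl oxidases and 7 and 1 of 14 further components, where 24.5% and 25.9% of all genes were. Of 19 cell surface receptors of basement membrane proteins, 7 of 16 tested rose and 3 fell with the CD146 shRNA, with a median log2 fold change of 0.14. ITGB1, the common beta subunit of most laminin-binding and collagen-binding integrins, went from a mean of 657 to 941 CPM (0.52, SE 0.04), and the syndecan SDC4 from 156 to 265 CPM (0.76, SE 0.04). The laminin receptor subunit ITGA6 fell from 184 to 133 CPM (-0.47, SE 0.04), and UNC5B, a netrin receptor, from 21.6 to 8.19 CPM (-1.40, SE 0.09). The edgeR adjusted p of these 4 was 7.94e-12 or less. With CD146 raised in HepG2, 6 of 15 tested rose and 1 fell, with DDR1, a collagen receptor, at 0.38 (SE 0.05), SDC4 at 0.18 (SE 0.04), ITGA6 at 0.15 (SE 0.03) and ITGA1 at -0.17 (SE 0.05), and edgeR adjusted p-values of 0.016 or less.

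Of 14 genes for collagen folding and secretion, 10 rose and 2 fell with the CD146 shRNA, with a median log2 fold change of 0.21. P4HB, the beta subunit of prolyl 4-hydroxylase, went from a mean of 740 to 1176 CPM (0.67, SE 0.05), and the prolyl isomerase PPIB from 263 to 389 CPM (0.56, SE 0.05). COLGALT1, which adds galactose to collagen hydroxylysine, fell from 291 to 182 CPM (-0.68, SE 0.04) and P4HA2, a catalytic prolyl hydroxylase subunit, from 45.1 to 24.9 CPM (-0.86, SE 0.07), each of the 4 with an edgeR adjusted p of 4.85e-13 or less. In HepG2, 1 of 12 tested rose, the lysyl hydroxylase PLOD2 at 0.24 (SE 0.04), and 6 fell, among them P4HB at -0.18 (SE 0.03), CRTAP at -0.17 (SE 0.05) and PLOD1 at -0.15 (SE 0.04), with edgeR adjusted p-values of 0.00355 or less. The median there was -0.08.

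Of 12 genes for the sugar chain by which dystroglycan binds laminin, 4 fell with the CD146 shRNA, among them RXYLT1 (-0.50, SE 0.08), POMK (-0.21, SE 0.06) and POMT1 (-0.17, SE 0.06), with edgeR adjusted p-values of 0.0142 or less. In HepG2, B4GAT1 (-0.25, SE 0.05) and POMK (-0.24, SE 0.05) fell, with edgeR adjusted p-values of 0.000205 or less, and 0 rose by edgeR, also at an unadjusted p under 0.05 and in DESeq2. Of the 4 other lysyl oxidases, LOXL4 rose with the CD146 shRNA (1.15, SE 0.31) and in HepG2 (0.83, SE 0.09). LOX fell in both (-0.33, SE 0.07, and -0.38, SE 0.08) and LOXL1 fell with the CD146 shRNA (-0.84, SE 0.15). The edgeR adjusted p of these calls was 0.0015 or less.

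Of 22 further basement membrane components, 7 of 14 tested rose and 1 fell with the CD146 shRNA. EFEMP1, a fibulin, went from a mean of 614 to 1180 CPM (log2 fold change 0.94 with an SE of 0.04), COL7A1, the anchoring fibril collagen, from 469 to 724 CPM (0.63, SE 0.04), EGFLAM (pikachurin), a dystroglycan ligand, from 2.88 to 11.2 CPM (1.96, SE 0.15) and NPNT, an integrin ligand, from 120 to 149 CPM (0.31, SE 0.05). Their edgeR adjusted p was 3.86e-07 or less. In HepG2, 2 of 9 tested rose, SPOCK2 at 1.01 (SE 0.08) and NPNT at 0.46 (SE 0.10), and FBLN5 fell from 2.26 to 0.693 CPM (-1.68, SE 0.31), with edgeR adjusted p-values of 0.000217 or less.

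**Figure D5:**
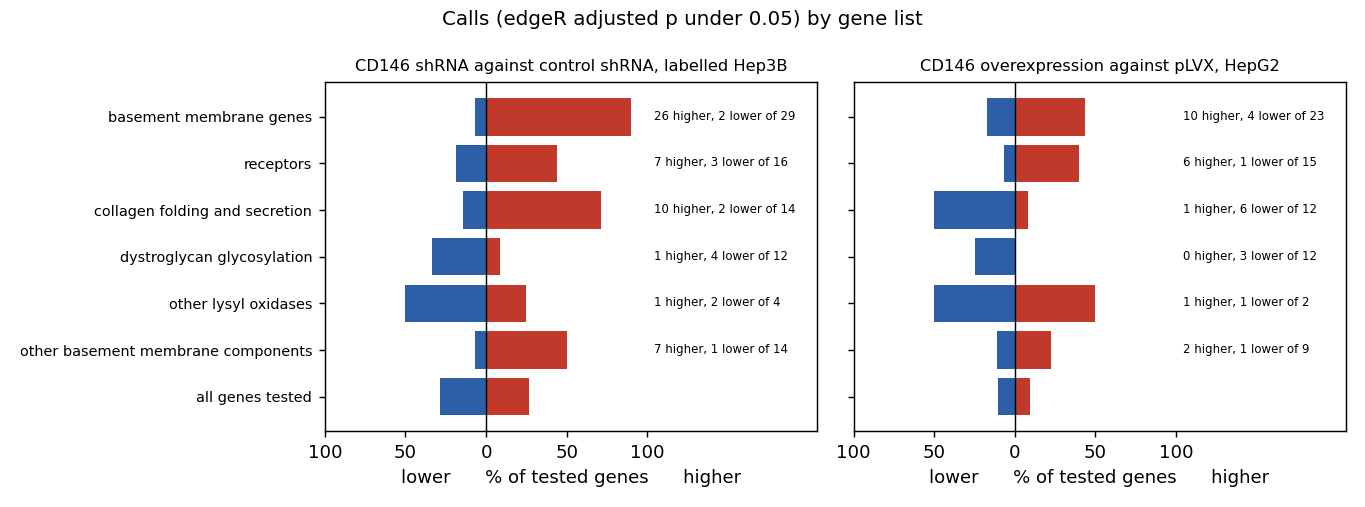
Share of tested genes called higher (red) or lower (blue) by edgeR at an adjusted p under 0.05, for the basement membrane genes, 5 lists of related genes and all genes tested, in the libraries labelled Hep3B (left) and HepG2 (right). Bars are shares of the tested genes, with the counts beside them: 26 of 29 basement membrane genes are higher on the left, where 26.8% of all genes are.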

How the data were processed

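RNA-seq libraries were grouped by cell line and treatment from the labels. Raw counts per Ensembl gene were deposited by the authors with no normalisation, and FPKM, scaled by length and library size and rounded to 2 decimals, were also deposited by the authors. Per the submitters' processing notes, cutadapt 1.9.1, HISAT2 2.2.1 and HTSeq 0.6.1 were used. The build, annotation and strand setting are not given in the sources used here. Positions and overlaps are from GENCODE version 29 (GRCh38).

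Counts were tested in R 4.3.3 with edgeR 4.0.16 (quasi-likelihood, TMM, filterByExpr, 2-sided, Benjamini-Hochberg over all genes tested), each line alone, and all 12 libraries together for contrasts between lines. SE is the absolute log2 fold change over the square root of F. The scripts were tested on simulated data. Alternatives were DESeq2 1.42.0, RLE scaling, no filter, a replicate block, limma 3.58.1 on log2(FPKM + 1 or 0.1), and leaving out each library. Per-library values are given for members called within a line at 5 CPM or more in the higher group, for COL15A1 and for low members on which a result turns. From each further list up to 4 called genes with the smallest adjusted p per line are named, except for results that are not reported here. The members and lists were chosen with earlier results of these data known. Levels between genes are compared as FPKM.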

Additional observations from a re-analysis of the deposited data

Results flagged for a closer look

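For 20 members the effect of higher CD146 differed between the lines (edgeR contrast of HepG2 minus libraries labelled Hep3B, adjusted p under 0.05). In log2 units the difference was 3.214 for LAMA1, 2.199 for LAMA3, 0.6456 for LAMA5, 0.1659 for LAMB1, 0.6106 for LAMB2, 2.686 for LAMB3 and 0.5499 for LAMC1 among the laminin chains. It was 1.92 for COL4A5 and 1.953 for COL4A6, 1.658 for NID2, 0.7856 for HSPG2, 0.8268 for AGRN and 0.5005 for COL18A1. It was 1.691 for NTN4, 3.551 for SPARC, 0.218 for SMOC1, 0.3683 for FBLN1, 0.8807 for TINAGL1, 0.9245 for FRAS1 and 0.5975 for DAG1. Line, perturbation, vector and medium cannot be told apart in this contrast. The perturbations differed in size, as MCAM averaged 115 and 24.4 CPM in the 2 groups labelled Hep3B and 23.4 and 1932 CPM in HepG2. A difference is therefore not one of line alone. It adds the log2 fold change with the CD146 shRNA to that with the CD146 vector, and so is not separate from the calls within the lines.

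LAMA1 averaged 0.316 CPM with pLVX and 1.04 CPM with the CD146 vector. It passed the filter in HepG2 alone only through the libraries in which it is high, so that its value is a description. LAMB3 was too low to test in HepG2 alone, with 1, 0 and 6 counts with pLVX, and without pLVX replicate 3 its difference was 4.72. NID2 had 5 to 13 counts in HepG2 libraries, and without CD146 overexpression replicate 1 its difference was 1.25 and missed the threshold (edgeR adjusted p = 0.0539).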

How the results depend on the processing

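With the CD146 shRNA, 20 to 26 members rose and 2 fell under every alternative run. Without each library in turn, 25 to 26 members rose and 2 fell with the CD146 shRNA, 10 to 11 rose and 3 to 4 fell with the CD146 vector, and 24 were higher and 6 lower between the lines. In the contrast of responses, 18 to 20 were higher and 0 to 2 lower. On the FPKM scale (limma, pseudocount 1 or 0.1, and 1 with no filter), 2 members fell in HepG2 under each setting, against 4 on counts. In the contrast of responses, members lower were 0 on counts, 1 in DESeq2, 2 and 1 on log2(FPKM + 1) and log2(FPKM + 0.1), and 2 with no filter on FPKM. LAMC1 between the lines reversed to 0.1715, 0.1744 and 0.1715 on these 3 FPKM settings, and the contrast of NID1 to -0.1912 with a pseudocount of 1, with and without the filter. The cause was not tested.

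Over all genes, the CD146 vector gave 3037 calls in edgeR, 1839 in DESeq2 and 1281, 1299 and 970 on FPKM, with 48.1%, 46.4%, 73.3%, 73.7% and 72.8% of them higher. Between the lines 52.2% of calls were higher on counts and 63.6% to 63.8% on FPKM. NTN1's contrast (-1.66, edgeR adjusted p = 0.0506) passed in DESeq2 (adjusted p = 0.0387), on FPKM and without CD146 shRNA replicate 3 (-1.73) or pLVX replicate 1 (-1.89) or 2 (-2.22), and was -0.28 without pLVX replicate 3. That of LAMC3 (-1.43) passed without CD146 shRNA replicate 2 (-1.51) or pLVX replicate 2 (-1.97), and was -0.94 without pLVX replicate 1. NTN1 and LAMC3 were too low to test in HepG2 alone. Both entered through the libraries labelled Hep3B, in which they are high, so that their contrasts are a description. That of LOXL2 (0.92) passed without pLVX replicate 1 (1.53) or CD146 overexpression replicate 1 (1.24), and was 0.54 without pLVX replicate 3.

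Same-numbered libraries did not deviate together: r across genes was 0.124, 0.038 and 0.036 for the shRNA pairs and -0.052, -0.034 and 0.014 for the HepG2 pairs, so the numbers were not taken as pairs. With the replicate number as a block, 26 members rose and 2 fell with the CD146 shRNA, 10 rose and 4 fell in HepG2, 24 and 6 were called between the lines, and 20 were higher and 1 lower in the contrast of responses.

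On FPKM, COL4A6, COL18A1, LAMA3, LAMC3 and FRAS1 lost their calls with the CD146 shRNA under all 3 settings, and SMOC1 and FBLN1 lost theirs in HepG2. Members whose counts were too low to test were LAMA4, FREM2 and SMOC2 in both lines, LAMA2 and NID1 with the CD146 shRNA, and COL4A1, COL4A2, COL4A4, LAMB3, LAMC3, COL15A1, PXDN and NTN1 with the CD146 vector.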
